A study of Arabidopsis thaliana with 4 samples.

Results

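Cytosolic ribosomal protein genes are nuclear genes for the proteins of the 40S and 60S subunits of the ribosome that translates nuclear-encoded mRNAs. The 48 genes described here were chosen by their Arabidopsis gene identifiers, by a rule that used no values. They were proposed with earlier results of these data known. Of the 48, 40 were among the 27110 nuclear genes matched in all libraries and within the limits on span and value. The RNA came from 2 CLF RIP libraries of clf-28 plants carrying Myc-tagged CURLY LEAF (CLF), and from 2 control RIP libraries of wild-type plants without the tag. Both groups were Col-0 plants aged 3 weeks, crosslinked and taken through nuclear preparation, sonication and pull-down with an anti-Myc antibody. The submitters describe the RNA of the control libraries as random RNA. CLF is a histone methyltransferase of Polycomb repressive complex 2, and Myc-CLF restores the normal phenotype of the clf-28 mutant. The labels give neither the promoter that drives Myc-CLF nor the number of plants per library. Since separate plants per library are not stated either, every p-value reflects no more than library-to-library spread, possibly technical. Groups were taken from the sample labels, although the deposited file titles point the other way round. With the labels wrong, all directions would be swapped.

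The large subunit carries the peptidyl transferase centre and the small subunit decodes the mRNA. In plants almost every ribosomal protein is encoded by a small family of near-identical genes, and the subunits are assembled in the nucleolus from rRNA and imported proteins. Ribosomal protein mRNAs are abundant in growing tissue, and several of these genes are known from mutants with pointed leaves, altered leaf polarity or embryo lethality. Near-identical copies can share reads, so the value of any single copy is uncertain. No sequences of these genes were used here.

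The deposited value is FPKM, fragments per kilobase of transcript and per M mapped fragments (M, a mega unit), 1 value per locus and library. The CLF RIP libraries listed 67357 and 67210 loci, and the control RIP libraries 67292 and 67135. The estimated depth behind the FPKM scale was 4.28 and 4.26 M fragments for the CLF RIP and 10.02 and 9.72 M for the control RIP, so the CLF RIP values rest on fewer reads. Of 4 leaf markers all were detected, with summed FPKM of 976 and 921 in the CLF RIP and 2554 and 2551 in the control RIP. The 3 flower markers, all detected, summed to 8.02 and 9.12 FPKM in the CLF RIP and 28.0 and 34.1 FPKM in the control RIP. The 6 root markers summed to 2.23 and 1.73 FPKM in the CLF RIP and 2.23 and 2.93 FPKM in the control RIP, with EXPA7 and CASP1 listed at 0 in all 4 libraries. PRP3 and SHV2 were at 0 in both CLF RIP libraries, RHD2 in 1 of them and PRP3 in control RIP replicate 1. The 3 seed markers SESA1, CRA1 and CRU2 summed to 0 and 0.475 FPKM in the CLF RIP and 0.139 and 0.331 FPKM in the control RIP. At 0 were all 3 of them in CLF RIP replicate 1, CRA1 and CRU2 in CLF RIP replicate 2, SESA1 and CRU2 in control RIP replicate 1, and CRA1 in control RIP replicate 2. The leaf and flower markers thus differed between the groups, and their part in the results below was not tested.

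Of the 48 genes, 40 had a matching locus in all 4 libraries, and all 40 passed the filter of at least 1 FPKM in at least 2 libraries. The other 8 lacked a match in at least 1 library. Just 1 gene, RPL10B, carried its own identifier in all libraries, 20 did so in some, and 27 in none. The rest were found by a reciprocal overlap of at least 0.8 between locus and gene. A RefSeq table names the protein family of 24 of the 48 genes, 13 of the large and 11 of the small subunit. The other 24 are given by identifier, or by a symbol that names no family, and carry no subunit here.

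In every library the median level of the tested genes was above that of all genes, where a match in all libraries was required of both. The 40 tested genes had a median of 38.5 and 37.9 FPKM in the CLF RIP libraries and 44.2 and 47.7 FPKM in the control RIP libraries. The median over all 14701 genes tested was 9.65 and 9.55 FPKM in the CLF RIP and 7.69 and 7.76 FPKM in the control RIP. Summed over the 40 genes, the level was 2101 and 2004 FPKM in the CLF RIP and 2150 and 2141 FPKM in the control RIP. The sums of the groups did not overlap but lay close together. In CLF RIP replicate 1, RPS18C alone gave 284 FPKM of the sum, against 39.0 in replicate 2 and 63.5 and 61.0 in the control RIP. Of the 40 genes, 36 averaged at least 20 FPKM over the libraries.

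No gene of the 40 passed the threshold in limma over all 14701 genes tested (Benjamini-Hochberg adjusted p under 0.05), 0 higher and 0 lower. Over all genes 0.701% were called higher and 0.558% lower, so a count of 0 among 40 is near the background. An unadjusted p under 0.05 was reached by 10 of the 40, or 25%, against 24.7% of all genes. By direction these were 2 genes higher in the CLF RIP, against 17.0% of all genes, and 8 genes lower, against 7.67% of all genes. A level in these pull-downs was not set against input RNA, which was not analysed here, so the level in the plant and the share recovered cannot be told apart. Nor can fewer cells of a type and less RNA per cell.

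The genes leaned to lower values in the CLF RIP relative to the other genes. Their median log2 fold change, CLF RIP over control RIP on log2(FPKM + 1), was -0.20 beside 0.25 over all genes tested. The quartiles were -0.53 and 0.30 for the 40 genes and -0.26 and 0.71 for all genes. Of the 40 genes, 24 lay below 0 and 16 above, while 36.8% of all genes lay below 0. Among the 3808 genes that averaged at least 20 FPKM, the median was 0.29 and 37.0% lay below 0. Both CLF RIP values were below both control RIP values in 18 of the 40 genes, or 45%, against 18.9% of all genes. The groups were separated the other way in 8 of the 40, or 20%, against 40.6% of all genes. The remaining 14 overlapped. After median-of-ratios scaling 24 genes lay lower and 3 higher without overlap, against 28.6% and 27.8% of all genes. The number of the 40 genes above 0 was 11 under that scaling, 11 after quantile normalization and 6 with structural RNA genes left out. The median of all genes moved as well, to 0.01, 0.02 and -0.17 in that order. The sign of some genes thus depended on the scaling.

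**Figure D1:**
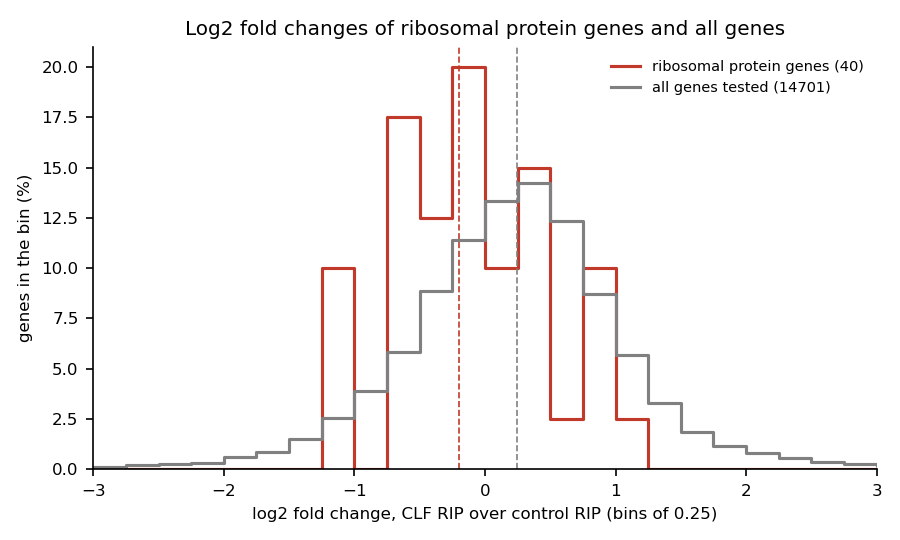
Share of genes (%) in bins of 0.25 of the log2 fold change, CLF RIP over control RIP, for 40 ribosomal protein genes (red) and 14701 genes tested (grey). Dashed lines mark the medians, -0.20 for the ribosomal protein genes and 0.25 for all genes.

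Large-subunit genes named by family came out on both sides. Of 11 tested, 7 lay below 0, with a median log2 fold change of -0.21. Without overlap 4 were lower and 3 higher, against 18.9% and 40.6% of all genes as given above; after quantile normalization these were 8 and 1 genes, against 28.0% and 28.3% of all genes. RPL27AB (AT1G23290), which encodes ribosomal protein L27a, had 40.8 and 47.5 FPKM in the CLF RIP and 94.99 and 98.1 FPKM in the control RIP. Its locus was the same in all libraries, on chromosome 1 from 8262984 to 8263587 in TAIR10, counted from 1. The CLF RIP values were both below the control RIP values, with a log2 fold change of -1.11 (SE 0.15, n = 2 each) and a limma adjusted p of 0.0867.

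RPL10B (AT1G26910) encodes a copy of ribosomal protein L10, which helps join the subunits. Its values were 1.05 and 1.05 FPKM in the CLF RIP and 4.18 and 3.23 FPKM in the control RIP. It had the lowest level of the 40 genes in each library. Its log2 fold change was -1.19 (SE 0.21, limma adjusted p 0.103), but -1.71 with a pseudocount of 0.1 and -0.52 with one of 5, so its size depended on the pseudocount. From the span of its locus its values correspond to at most 4.98 and 4.97 reads in the CLF RIP and 46.3 and 34.8 reads in the control RIP. It passed the threshold when only genes under their own identifier were tested, with a limma adjusted p of 0.0236. That setting called 304 of 2361 genes higher and 203 lower, against 103 and 82 of 14701 in the fit over all genes.

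RPL3B (AT1G61580) encodes a copy of ribosomal protein L3, which lies close to the peptidyl transferase centre. It had 20.7 and 12.3 FPKM in the CLF RIP and 8.01 and 9.57 FPKM in the control RIP. The groups did not overlap, but the CLF RIP libraries lay 1.68-fold apart, and the log2 fold change of 0.80 (SE 0.34) had a limma adjusted p of 0.255. It was 0.45 without CLF RIP replicate 1 and 0.34 with structural RNA genes left out. The copies of L23a, a protein at the exit of the peptide tunnel, also lay higher in the CLF RIP as deposited, at log2 fold changes of 0.29 and 0.25, close to the median of all genes. RPL23AA had 37.9 and 41.2 FPKM in the CLF RIP and 29.0 and 35.8 FPKM in the control RIP. RPL23AB had 30.8 and 35.1 FPKM in the CLF RIP and 26.9 and 28.2 FPKM in the control RIP. Both were separated between the groups by a small margin, with limma adjusted p of 0.436 and 0.470.

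RPL24A, one of the copies for ribosomal protein L24, had 31.8 and 35.6 FPKM in the CLF RIP and 43.8 and 48.7 FPKM in the control RIP. Its paralogue STV1, known from mutants with a short gynoecium valve, had 35.8 and 27.6 FPKM in the CLF RIP and 33.6 and 39.4 FPKM in the control RIP. The groups overlapped for STV1 and did not for RPL24A. ATL5 (RPL5A) and RPL5B encode ribosomal protein L5, which carries the 5S rRNA. ATL5 had 36.0 and 42.5 FPKM in the CLF RIP and 52.1 and 41.4 FPKM in the control RIP. RPL5B had 42.5 and 57.2 FPKM in the CLF RIP and 57.2 and 55.8 FPKM in the control RIP. The groups overlapped for both.

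Of the small-subunit genes named by family, 8 were tested and 6 lay below 0, with a median log2 fold change of -0.32. The same 6 genes were lower and 0 were higher without overlap, against 18.9% and 40.6% of all genes. The difference between the subunits was not tested, and the 21 tested genes without a family name stand in neither. RPS13A (AT4G00100), known from the pointed first leaf mutant pfl2, had 58.3 and 84.8 FPKM in the CLF RIP and 115 and 116 FPKM in the control RIP. The log2 fold change was -0.70 (SE 0.23, limma adjusted p 0.189), and -0.44 without CLF RIP replicate 1. RPS6 and EMB3010 (RPS6B) encode ribosomal protein S6, which S6 kinase phosphorylates downstream of the kinase TOR. RPS6 had 29.1 and 30.7 FPKM in the CLF RIP and 39.96 and 47.3 FPKM in the control RIP, a log2 fold change of -0.53 (SE 0.19). EMB3010 had 39.0 and 44.7 FPKM in the CLF RIP and 47.2 and 49.0 FPKM in the control RIP, a log2 fold change of -0.20 (SE 0.17). Neither passed, with limma adjusted p of 0.212 and 0.507.

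RPS5A, known for strong expression in dividing cells, had 44.3 and 57.7 FPKM in the CLF RIP and 69.6 and 68.5 FPKM in the control RIP. Its paralogue RPS5B had 21.1 and 18.9 FPKM in the CLF RIP and 22.2 and 22.7 FPKM in the control RIP. P40, which encodes the 40S protein SA, had 51.4 and 52.5 FPKM in the CLF RIP and 90.2 and 66.2 FPKM in the control RIP. All of these were lower in both CLF RIP libraries than in both control RIP libraries, with limma adjusted p of 0.267, 0.641 and 0.220 in that order.

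Both small-subunit genes that lay above 0 had 1 high CLF RIP library. RPS18C (AT4G09800), a copy for ribosomal protein S18, had 284 and 39.0 FPKM in the CLF RIP and 63.5 and 61.0 FPKM in the control RIP. CLF RIP replicate 1 was above and CLF RIP replicate 2 below both control libraries. The log2 fold change of 0.76 (SE 1.06, limma adjusted p 0.680) was -0.66 without CLF RIP replicate 1. RPS10B had 70.8 and 37.2 FPKM in the CLF RIP and 33.6 and 39.7 FPKM in the control RIP, so that again only CLF RIP replicate 1 was high.

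**Figure D2:**
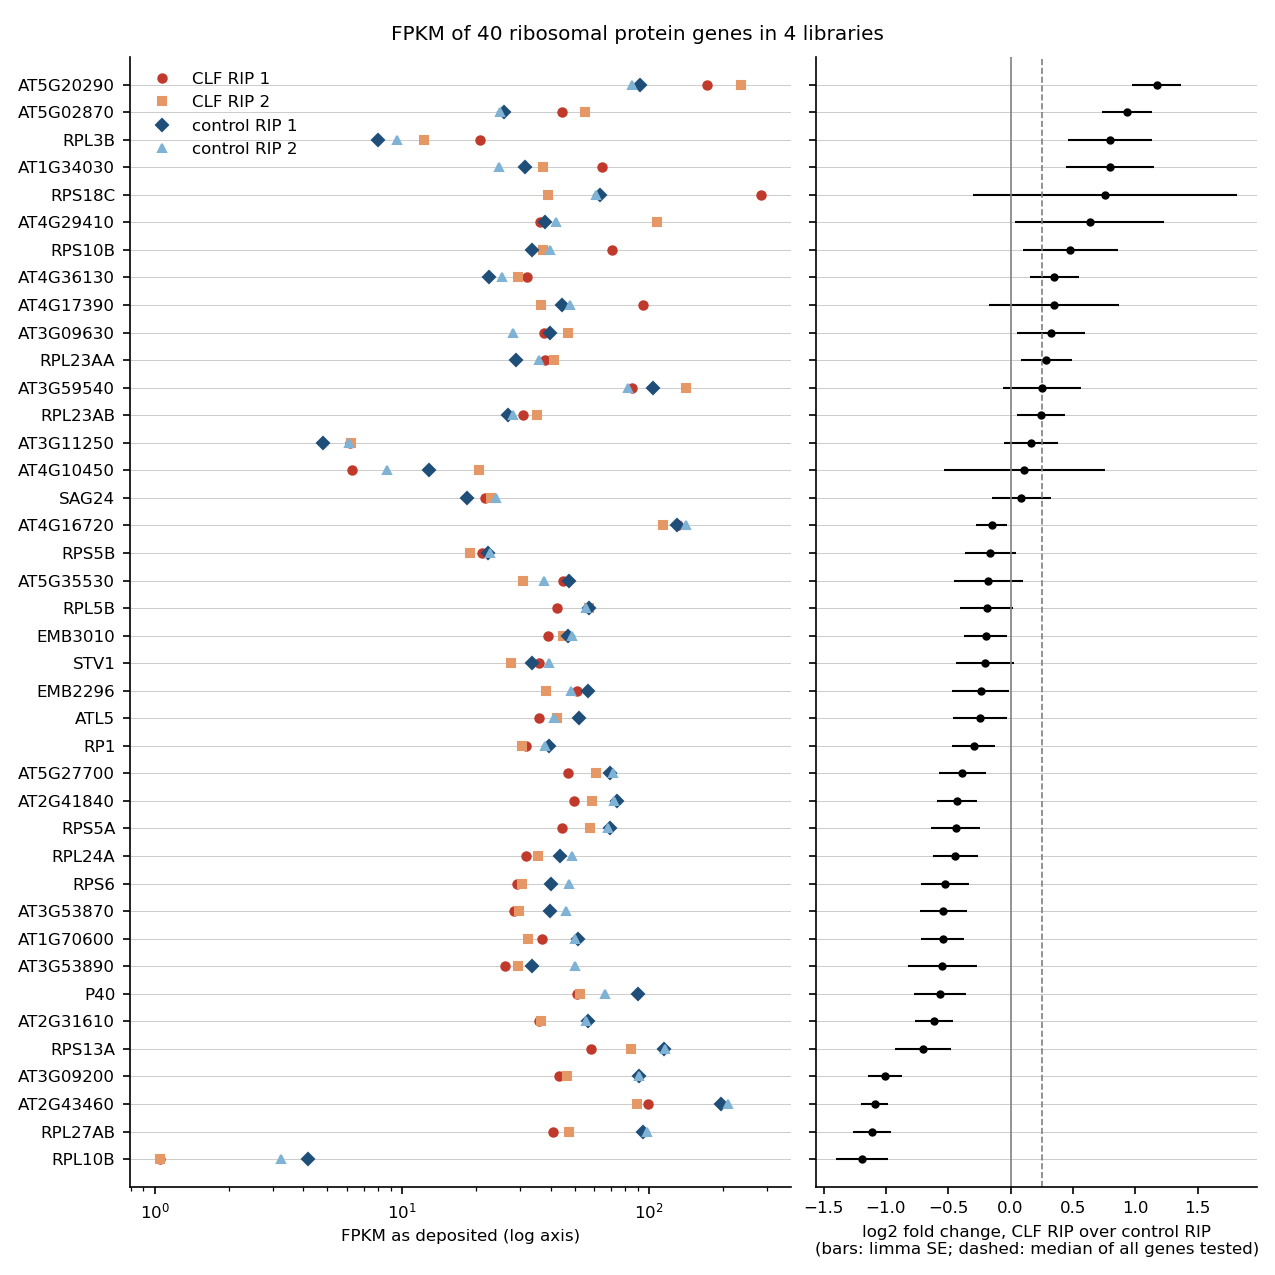
Left, FPKM on a log axis of each of the 40 tested genes in the CLF RIP libraries (circles and squares) and the control RIP libraries (diamonds and triangles), sorted by log2 fold change. Right, the log2 fold change, CLF RIP over control RIP, with limma SE as bars and the median of all genes (0.25) dashed; it runs from -1.19 for RPL10B to 1.17 for AT5G20290.

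The 21 tested genes without a family name included both the smallest adjusted p and the largest positive fold. AT2G43460 averaged 148 FPKM over the 4 libraries and had the highest mean of the 40 genes in the control RIP, while in the CLF RIP AT5G20290, RPS18C, AT4G16720 and AT3G59540 averaged more. It had 99.1 and 89.8 FPKM in the CLF RIP and 195 and 208 FPKM in the control RIP, at a locus on chromosome 2 from 18046004 to 18047401 in all libraries. The groups were well apart, with a log2 fold change of -1.09 (SE 0.11) and a limma adjusted p of 0.0565. It passed the threshold, lower in the CLF RIP, after median-of-ratios scaling (limma adjusted p 0.0420), after quantile normalization (0.0482) and with a filter of at least 5 FPKM (0.0427). It was then 1 of 118, 95 and 88 genes called lower, in that order, of 14701, 14701 and 10321 tested. Over the 14 alternatives in which it was tested it lay lower in the CLF RIP, with limma adjusted p of 0.0420 to 0.424. AT3G09200 had 43.2 and 46.7 FPKM in the CLF RIP and 91.1 and 91.3 FPKM in the control RIP, a log2 fold change of -1.01 (SE 0.14, limma adjusted p 0.0865). AT2G31610 had 36.0 and 36.7 FPKM in the CLF RIP and 56.5 and 55.8 FPKM in the control RIP, a log2 fold change of -0.61 (SE 0.15, limma adjusted p 0.147). For both genes each pair of libraries lay close together and the groups were clearly separated.

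In the other direction, AT5G20290 had 171 and 235 FPKM in the CLF RIP and 92.1 and 85.2 FPKM in the control RIP, a log2 fold change of 1.17 (SE 0.19, limma adjusted p 0.102). AT5G02870 had 44.6 and 55.2 FPKM in the CLF RIP and 26.0 and 25.04 FPKM in the control RIP, a log2 fold change of 0.93 (SE 0.20, limma adjusted p 0.127). AT1G34030 had 64.5 and 37.4 FPKM in the CLF RIP and 31.4 and 24.7 FPKM in the control RIP, a log2 fold change of 0.80 (SE 0.35, limma adjusted p 0.270). For AT1G34030 it was 0.41 without CLF RIP replicate 1, 1.18 without CLF RIP replicate 2 and 0.31 with structural RNA genes left out. That last setting gave 0.68 for AT5G20290 and 0.45 for AT5G02870. All CLF RIP values of these genes were above all control RIP values, and none passed. At least 2-fold apart without overlap were 4 genes lower (RPL10B, RPL27AB, AT2G43460 and AT3G09200), or 10%, against 5.88% of all genes. In the higher direction it was 1 gene, AT5G20290, or 2.5%, against 13.2% of all genes.

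Among other abundant genes, AT4G16720 had 130 and 113 FPKM in the CLF RIP and 130 and 141 FPKM in the control RIP, so the groups overlapped in rank. AT3G59540 had 85.3 and 142 FPKM in the CLF RIP and 103 and 82.2 FPKM in the control RIP. At the low end, AT3G11250 had 6.18 and 6.20 FPKM in the CLF RIP and 4.78 and 6.10 FPKM in the control RIP. It lay between RPL10B and AT4G10450 in mean level, and its groups did not overlap, though 1 control value lay close to both CLF RIP values.

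The spread between libraries of a group was mostly small for these genes. The median fold between the libraries was 1.17 in the CLF RIP and 1.11 in the control RIP, compared with 1.31 and 1.19 over genes averaging at least 20 FPKM. In the CLF RIP 4 of the 40 genes lay at least 2-fold apart, or 10%, against 21.1% of those genes. In the control RIP 0 of the 40 did, against 12.3%, and the largest fold was 1.496. Besides RPS18C at 7.27-fold, the 4 genes were AT4G10450, AT4G29410 and AT4G17390. AT4G10450 had 6.26 and 20.6 FPKM in the CLF RIP and 12.9 and 8.69 FPKM in the control RIP. AT4G29410 had 36.3 and 108 FPKM in the CLF RIP and 38.0 and 42.2 FPKM in the control RIP. AT4G17390 had 94.9 and 36.7 FPKM in the CLF RIP and 44.6 and 48.0 FPKM in the control RIP. No library was high in all 4, since replicate 1 was the higher in RPS18C and AT4G17390 and replicate 2 in the others. All 4 had log2 fold changes above 0. Without them, 12 of 36 genes lay above 0, and the median was -0.22. A second locus of at least 300 bp covered at least 0.2 of the gene in 22 and 26 of the 48 genes in the CLF RIP and in 20 and 24 in the control RIP. The tables give no strand, and the part of such loci in the spread was not tested.

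**Figure D3:**
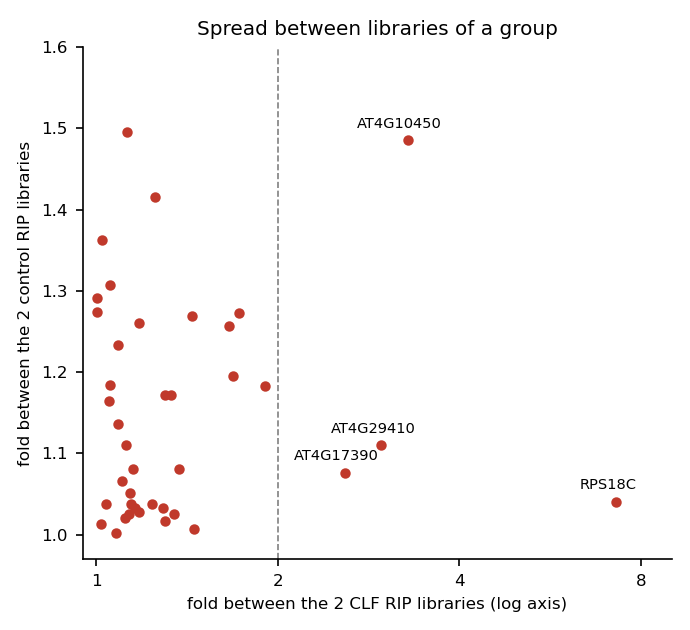
Fold between the CLF RIP libraries (horizontal, log axis) and between the control RIP libraries (vertical) for the 40 tested genes, 1 point per gene. The dashed line marks 2-fold; the 4 genes to its right are named, and all genes lay within 1.496-fold in the control RIP.

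Ratios between paralogues compare copies of a gene within a library, where a scaling common to all genes largely cancels. The RefSeq table names both copies for 7 families with 2 tested genes, and 7 pairs were compared. With 2 libraries per group the exact two-sided permutation test cannot give a p below 0.333, so no pair could pass. In 3 pairs the ratios of the groups did not overlap, and in 6 of 7 the same copy was the higher in all 4 libraries. A share of 0.333 of the ways to split the libraries separates the groups fully, so 3 of 7 pairs is near that share. RP1 (RPL3A) had 31.8 and 30.6 FPKM in the CLF RIP and 39.2 and 37.8 FPKM in the control RIP. RP1 was therefore 1.54 and 2.49 times RPL3B in the CLF RIP libraries and 4.90 and 3.95 times RPL3B in the control RIP libraries (exact permutation p 0.333).

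SAG24 (RPL10C), named for a rise in senescing leaves, had 21.8 and 23.0 FPKM in the CLF RIP and 18.4 and 24.0 FPKM in the control RIP. RPL10B was 0.0483 and 0.0459 times SAG24 in the CLF RIP and 0.227 and 0.135 times SAG24 in the control RIP (exact permutation p 0.333), on the few reads given above. RPS6 was 0.746 and 0.686 times EMB3010 in the CLF RIP and 0.847 and 0.966 times EMB3010 in the control RIP (exact permutation p 0.333). For the copies of L5, L23a, L24 and S5 the ratios of the groups overlapped. RPS5A was 2.10 and 3.05 times RPS5B in the CLF RIP and 3.13 and 3.02 times RPS5B in the control RIP. RPL24A over STV1 was the pair whose order changed, at 0.888 and 1.29 in the CLF RIP and 1.30 and 1.24 in the control RIP.

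**Figure D4:**
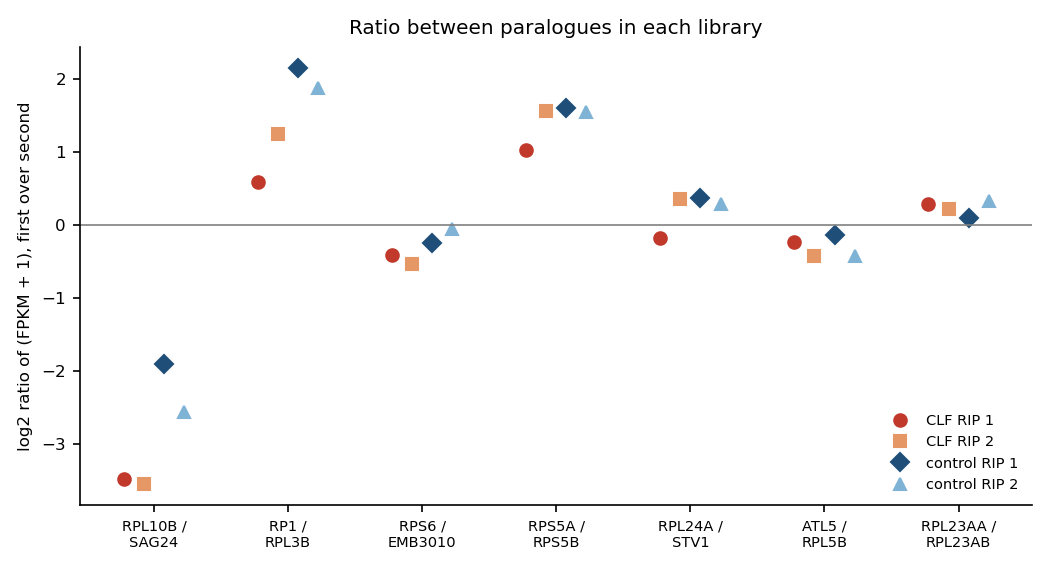
Log2 ratio of FPKM + 1 between paralogues (first over second name) in each library, for the CLF RIP (circles and squares) and the control RIP (diamonds and triangles). RPL10B over SAG24, RP1 over RPL3B and RPS6 over EMB3010 are the 3 pairs in which the groups do not overlap. Which copy comes first follows the order of the gene list, so their directions share no meaning. The first copy is the less abundant for RPL10B and RPS6, and the more abundant for RP1.

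Of the remaining tested genes, 6 were lower without overlap, namely AT1G70600, AT3G53870, AT2G41840, AT3G53890, AT5G27700 and RP1, with limma adjusted p of 0.184 to 0.362. AT4G36130 was higher without overlap. AT3G09630, EMB2296 and AT5G35530 overlapped. AT1G70600 had 36.8 and 32.4 FPKM in the CLF RIP and 51.5 and 50.2 FPKM in the control RIP, and AT4G36130 had 32.1 and 29.5 FPKM in the CLF RIP and 22.4 and 25.5 FPKM in the control RIP.

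The 8 genes without a match in all libraries were not tested. SAC52 (RPL10A), named as a suppressor of the acaulis mutant, had 114 and 51.9 FPKM in the CLF RIP and 80.4 FPKM in control RIP replicate 2. RPSAb, a paralogue of P40, was at 31.2 and 7.35 FPKM in the CLF RIP and at 3.78 FPKM in control RIP replicate 2. The control value of SAC52 lay between its CLF RIP values, and that of RPSAb lay below both. PGY2 was at 25.2 FPKM in CLF RIP replicate 1 and at 28.2 and 27.2 FPKM in the control RIP. AT2G19730 was at 88.6 FPKM in CLF RIP replicate 2 and at 78.5 and 86.7 FPKM in the control RIP. For both, the 3 values lay close together. RPL16A was matched only in the CLF RIP, at 8.76 and 6.94 FPKM, and PFL (RPS18A) only in the control RIP, at 47.4 and 6.29 FPKM. AT3G60770 was matched only in CLF RIP replicate 2, at 55.8 FPKM, and RPS15A only in control RIP replicate 1, at 74.5 FPKM. A missing match says that no locus of similar span was listed, not that the gene had no reads.

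Other genes of the translation machinery gave few calls as well. Beside the counts below stand the shares over all genes, 24.7% at an unadjusted p under 0.05, 36.8% below 0, and 18.9% lower and 40.6% higher without overlap. Of 12 tested further cytosolic ribosomal protein genes, found by name in the RefSeq table, 0 passed, 4 had an unadjusted p under 0.05, 6 lay below 0 and 6 above, and the median log2 fold change was 0.16. The median of these genes was thus above 0 and that of the 40 below, while both were below the 0.25 of all genes. Without overlap 3 were lower and 5 higher as deposited. Under the other 3 scalings 5 were lower and 2 to 4 higher. Of all genes 28.0% to 36.9% were then lower and 18.8% to 28.3% higher. The difference between the lists was not tested. AT2G36170, an L40 gene fused to ubiquitin, had 117 and 71.0 FPKM in the CLF RIP and 32.7 and 26.0 FPKM in the control RIP (limma adjusted p 0.121). RPS28 had 51.3 and 57.9 FPKM in the CLF RIP and 77.4 and 99.2 FPKM in the control RIP (limma adjusted p 0.168).

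Of 24 tested nuclear genes for plastid ribosomal proteins 0 passed, 5 had an unadjusted p under 0.05, 21 lay below 0 and 3 above, and the median log2 fold change was -0.54. In this list 15 genes were lower and 1 higher without overlap as deposited. Under the other 3 scalings 18 to 20 were lower and 0 higher. Of all genes 28.0% to 36.9% were then lower and 18.8% to 28.3% higher. PSRP6, a plastid-specific ribosomal protein gene, had 9.96 and 11.3 FPKM in the CLF RIP and 48.1 and 41.4 FPKM in the control RIP (limma adjusted p 0.0694).

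Of 13 tested ribosome biogenesis genes 0 passed, 3 had an unadjusted p under 0.05, 12 lay above 0 and 1 below, and the median was 0.45. Without overlap 8 were higher and 1 lower as deposited. Under the other 3 scalings 2 to 4 were higher and 1 lower. Of all genes 18.8% to 28.3% were then higher and 28.0% to 36.9% lower. NUC-L1, the nucleolin gene, had 60.6 and 56.2 FPKM in the CLF RIP and 41.9 and 38.9 FPKM in the control RIP (limma adjusted p 0.178). AT4G31420 had 10.1 and 15.6 FPKM in the CLF RIP and 5.69 and 5.20 FPKM in the control RIP (limma adjusted p 0.159).

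Of 17 tested translation factor and associated genes 0 passed upward, 1 passed downward (0.558% of all genes did) and 5 had an unadjusted p under 0.05. Above 0 lay 7 and below 0 lay 10, with a median of -0.06. Without overlap 6 were lower and 5 higher as deposited. Under the other 3 scalings 11 to 13 were lower and 1 to 2 higher. Of all genes 28.0% to 36.9% were then lower and 18.8% to 28.3% higher. The gene that passed was TCTP, the translationally controlled tumour protein gene. It had 301 and 308 FPKM in the CLF RIP and 667 and 692 FPKM in the control RIP. Its log2 fold change was -1.16 (SE 0.05, limma adjusted p 0.0357). The poly(A)-binding protein genes stood on both sides without passing. PAB2 had 42.5 and 38.7 FPKM in the CLF RIP and 97.1 and 103 FPKM in the control RIP, and PAB4 had 30.2 and 28.5 FPKM in the CLF RIP and 12.5 and 12.7 FPKM in the control RIP.

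The S6 kinase genes, and TOR, the kinase upstream of S6 kinase, showed no call. Of these 3 genes 0 passed and 0 had an unadjusted p under 0.05 in limma. Without overlap 0 were lower and 0 higher as deposited, and 1 was lower and 0 higher under the other 3 scalings. TOR had 16.4 and 15.1 FPKM in the CLF RIP and 14.7 and 19.3 FPKM in the control RIP (limma adjusted p 0.822). S6K2 had 58.4 and 8.91 FPKM in the CLF RIP and 14.5 and 14.0 FPKM in the control RIP (limma adjusted p 0.695).

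**Figure D5:**
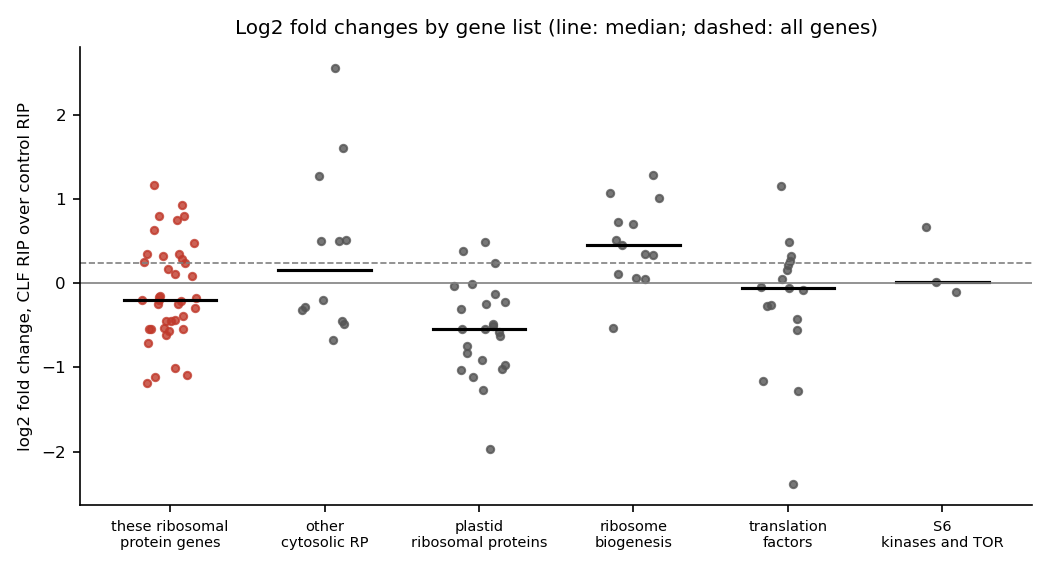
Log2 fold change, CLF RIP over control RIP, of each tested gene in 6 lists, with the list's median as a black line and the median of all genes (0.25) dashed. Medians are -0.20 for the 40 ribosomal protein genes, 0.16 for other cytosolic and -0.54 for plastid ribosomal protein genes, 0.45 for ribosome biogenesis, -0.06 for translation factors and 0.02 for S6 kinases and TOR.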

How the data were processed

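FPKM per locus were deposited by the authors, 1 table per library. The submitters' processing notes list TopHat2 2.0.10, Trimmomatic and TAIR10. For the program that computed FPKM: not given in the sources used here. RefSeq's TAIR10.1 table supplied the gene names. Gene spans were those of loci under their own identifier, otherwise those of RefSeq. A locus with a serial number was matched by reciprocal overlap of at least 0.8, 1 gene per locus. Genes needed a match in all 4 libraries, a span of at least 300 bp and values below what 1 read gives at a 75 bp locus (25693 and 25765 FPKM in the CLF RIP, 10940 and 11294 FPKM in the control RIP), which left out 200 genes. The fit, limma 3.58.1 (R 4.3.3), took log2(FPKM + 1) of all genes reaching 1 FPKM in 2 or more libraries (trend and robust prior, Benjamini-Hochberg over all genes, threshold 0.05). On that scale the folds of low genes are understated.

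Scaling depths are those at which 80.6% to 82.6% of low values of loci of 350 to 900 bp became whole reads within 0.1, with 210 bp taken off each length. The highest possible reads of a gene use the span of its locus with introns. The fit was also run on simulated data, and the outcome of that is not reported here. Members and lists were chosen with earlier results of these data known. Values in all libraries were given by rule for the 6 largest folds in each direction, the 5 most abundant and 3 lowest genes, and the 3 families whose copies differed most. Other genes are named beyond the rule. Of each other list the rule named genes past the threshold, or else the 2 with the smallest p, of which 1 gene is not reported here; PAB2 and PAB4 are outside it and were chosen after their values were seen. The annotation holds no descriptions, so the further cytosolic ribosomal protein genes were taken by symbol or synonym. Other software was matplotlib 3.10.9, scipy 1.17.1, numpy 2.4.6, pandas 2.3.3 and Python 3.11.15. Alternatives changed filter, pseudocount, scaling, prior, pairing, joining rule and libraries.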

Additional observations from a re-analysis of the deposited data

How the results depend on the processing

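Of 15 alternatives, 6 (no trend or robust prior, the replicate block, and leaving out each library) called 0 genes of the whole series and say nothing about these genes. None of the 40 was called higher in the 8 that called any gene higher. Of the 9 that called any gene lower, 4 called 1 of the 40. AT2G43460 was called with at least 5 FPKM, with median-of-ratios scaling and with quantile normalization. Of all genes, 88 of 10321, 118 of 14701 and 95 of 14701 were called lower there, in that order. RPL10B was called with own identifiers only, where it was the 1 gene of the 40 left and 203 of 2361 genes were called lower. In that last setting the median log2 fold change was -1.19. The median was -0.47 (quantile normalization), -0.48 (scaling by median of ratios), -0.68 (no structural RNA genes), and -0.25 to -0.18 leaving out 1 library in turn. The median of all genes moved too, to 0.02, 0.01 and -0.17 under the 3 scalings, and the gap between the medians was -0.44 as deposited and -0.50, -0.49 and -0.51 under them. In counts of separated genes, which here and for the subunits and other lists were added after seeing the data, 25, 24 and 27 genes were lower and 3, 3 and 2 higher under the same scalings in turn. Of all genes 28.0%, 28.6% and 36.9% were lower and 28.3%, 27.8% and 18.8% higher under these scalings. Leaving out 1 library gave 21 to 24 lower and 10 to 12 higher, against 26.6% to 29.1% and 50.4% to 52.9% of all genes. Leaving out 1 library, 5 to 16 of the 40 had an unadjusted p under 0.05 in limma, against 11.5% to 25% of all genes.

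Signs turned under at least 1 alternative for 14 of the 40 genes, 10 of them with structural RNA genes left out; the 6 among the 20 genes named by rule follow. SAG24 was at -0.24, -0.19 and -0.39 under these scalings in that order, and ranged from -0.10 to 0.27 leaving out 1 library. AT3G11250 was at -0.077, -0.079 and -0.26 under the same scalings. AT4G10450 was at -0.19, -0.15 and -0.35, and at -0.68 to 0.89 leaving out 1 library. AT3G59540 was at -0.035 under the second scaling and -0.24 under the last, and at -0.11 to 0.61 leaving out 1 library. Leaving out 1 library also gave -0.66 to 2.17 for RPS18C and -0.14 to 1.41 for AT4G29410. The cause was not tested. Same-numbered libraries did not deviate together (correlation 0.02 over 14701 genes), so the numbers were not taken as pairs. With replicate number as a block limma called 0 of 14701 genes, and so 0 of the 40. An unadjusted p under 0.05 was reached by 6 of the 40 and 18.4% of all genes. The median, -0.20, cannot move under this balanced block. Depth limits genes of few reads, such as RPL10B.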
